A study of Mus musculus with 8 samples.

Results

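mmu-miR-486a-5p, mmu-miR-486b-5p, mmu-miR-451a and mmu-miR-144-3p, the miRNAs best known from red cell precursors, were followed through cells and extracellular vesicles (EVs) of a murine hepatocyte line. The 4 miRNAs were taken by name from the 1978 mouse mature miRNAs of the count table for their known erythroid role. Small RNA was sequenced from 3A, a murine hepatocyte line that is not tumorigenic, and from EVs purified by ultracentrifugation from medium that the cells had conditioned for 72 h. Cells of the shCTR groups carried a scrambled shRNA and cells of the shPCBP2 groups an shRNA against PCBP2, an RNA-binding protein studied here for the retention of miRNAs inside the cell. Both shRNAs are listed for cloning in the same retroviral vector, and the shPCBP2 line was selected with puromycin. The shPCBP2 line was made for the study, whereas the shCTR line had been generated earlier. Differences between the lines therefore cannot be told apart from those of the shRNA. The medium for EV collection held EV-depleted fetal bovine serum. Whether any reads of the EV libraries came from that serum was not tested, so EV levels are those of the purified preparation. The 8 libraries formed 4 groups of 2 biological replicates, which are cells and EVs of shCTR and cells and EVs of shPCBP2. The mRNA of PCBP2 is not measured by small RNA libraries, so the knockdown was not checked here.

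A miRNA is cut from a hairpin transcript and guides an Argonaute protein to messenger RNAs, which it recognises mainly through its seed, the bases near its 5′ end. miR-144 and miR-451a are made from a common transcript that the erythroid factor GATA1 switches on, and miR-451a is unusual in that Argonaute2, not Dicer, cuts its hairpin. miR-486 lies within Ank1, the gene of the erythrocyte membrane protein ankyrin-1, and is abundant in red cells and in striated muscle.

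The mature sequences of the miRNAs from the cluster on chromosome 11 are shown because miR-451a is the member with the highest level among those without cell reads, and because seeds group miRNAs into families. They are RefSeq sequences on GRCm38.p6, read 5′ to 3′, with the seed (bases 2 to 8) in capitals. The table of sequences held 2 of the 4 members.
miR-451a: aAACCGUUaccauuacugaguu
miR-144-3p: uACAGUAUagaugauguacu
miR-451a lies at chr11:78073186-78073207 and miR-144-3p at chr11:78073047-78073066, both on the plus strand. Among 1678 other mouse miRNAs with a sequence, 0 shared bases 2 to 8 with either of them. miR-101a-3p had bases 2 to 7 of miR-144-3p but not base 8.

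The hairpins show where the mature strands lie, in capitals here. They are also the units to which reads were aligned.
Mir451a: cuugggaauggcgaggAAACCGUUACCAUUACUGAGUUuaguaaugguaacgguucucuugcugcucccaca
Mir144: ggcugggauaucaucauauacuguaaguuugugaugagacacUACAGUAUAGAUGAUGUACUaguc
The Mir451a hairpin spans 72 bases, and its mature strand runs from base 17 to base 38, with 34 bases after it. In the Mir144 hairpin of 66 bases, the mature 3p strand runs from base 43 to base 62 and leaves 4 bases after it. In the GENCODE M21 annotation of GRCm38, Mir144 (chr11:78073005-78073070) and Mir451a (chr11:78073170-78073241) lie on the plus strand with 99 bases between them, and Mir451b is annotated on the minus strand over the same bases as Mir451a. Mir486 (chr8:23142555-23142682, plus strand) and Mir3107, the hairpin of miR-486b (chr8:23142573-23142662, minus strand), overlap each other inside Ank1 (chr8:22974844-23150497, plus strand). Mir486 fell within 15 of 17 Ank1 transcripts and overlapped 0 Ank1 exons, so its position was intronic.

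The core of the CELL motif, described for miRNAs that cells retain, is AUUA or AUUG. AUUA occurred in miR-451a from base 12, and neither form occurred in miR-144-3p. Reading the mature strand only, AUUA was found in 42 of 1679 mouse miRNAs with a sequence (2.50%) and AUUG in 114 (6.79%). In the paper, binding of PCBP2 also needed the RNA-binding protein SYNCRIP, which recognises a motif called hEXO. That motif was not searched for here, and binding to the members was not tested.

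The libraries held 26391248 to 38166798 counted reads. Mouse miRNAs took 8745848 to 12732173 reads in cells and 503070 to 687592 in EVs, and the nematode spike-in cel-miR-39 took the rest, from 57.4% to 66.9% in cells and from 97.6% to 98.4% in EVs. Levels are given as reads per 1000000 spike-in reads, or as a share of the mouse miRNA reads of a library. Where a count was 0, 3 counts per library are used as the floor that such a count allows. This floor covers counting error only, since the counting used no molecular identifiers. Replicates could differ by more, as miR-363-3p had 0 and 28 counts in cell shCTR. Bounds given below as at least a fold are therefore conditional on this floor. In these bulk samples, fewer vesicles and less of a miRNA per vesicle cannot be told apart. The hepatocyte miRNA miR-194-5p had 218474 to 342726 counts in the cell libraries and miR-192-5p had 10976 to 20510, whereas miR-122-5p, the most abundant miRNA of liver, had only 356 to 485 there and 795 to 2327 in the EV libraries.

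mmu-miR-486a-5p and mmu-miR-486b-5p were rare in cells and among the most abundant miRNAs of EVs in both conditions. In cells, mmu-miR-486a-5p had 193 and 155 counts with shCTR, against 68 and 85 with shPCBP2. In EVs it had 30647 and 26695 counts with shCTR, against 34143 and 26618 with shPCBP2, although EV libraries held fewer mouse miRNA reads. The EV and cell counts did not overlap. By count it ranked 218, 219, 242 and 243 among the mouse miRNAs of the cell libraries, and 6, 3, 3 and 3 among those of the EV libraries. Its mean level was 10.3 ± 0.692 reads per 1000000 spike-in reads (SD, n = 2) in cell shCTR and 1065 ± 55.4 (SD, n = 2) in EV shCTR. It was 4.31 ± 0.648 (SD, n = 2) in cell shPCBP2 and 892 ± 24.0 (SD, n = 2) in EV shPCBP2. The EV means were thus far above the cell means compared with the spread of replicates.

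The fitted EV/cell ratio of miR-486a-5p was 103-fold in shCTR, or 6.69 on the log2 scale with a standard error of 0.34 (adjusted p = 8.1e-06, edgeR quasi-likelihood test, Benjamini-Hochberg adjusted). In shPCBP2 it was 207-fold, or 7.69 with a standard error of 0.36 (adjusted p = 5.8e-06, edgeR quasi-likelihood test, Benjamini-Hochberg adjusted). Relative to the spike-in, most miRNAs went the other way. The median log2 ratio over the 180 tested miRNAs was -4.93 with shCTR, against -4.90 with shPCBP2. miR-486a-5p stood 11.62 above the median in shCTR and ranked 3 of 180, and ranked 4 of 180 in shPCBP2. Both miR-486 rows passed the test with a higher level in EVs in both conditions, where 6.67% of the tested miRNAs did so in shCTR and 7.78% in shPCBP2. When the total mouse miRNA count replaced the spike-in, the log2 ratio of miR-486a-5p was 11.67 with shCTR and 12.86 with shPCBP2. The median of all tested miRNAs then moved to 0.06 in shCTR and 0.30 in shPCBP2. On that scale 43 of 180 were called higher in EVs and 32 lower in shCTR, against 54 and 35 in shPCBP2. The amounts of cell and EV RNA that received the spike-in are not given in the sources used here, so each fold value holds for its scale only.

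**Figure D1:**
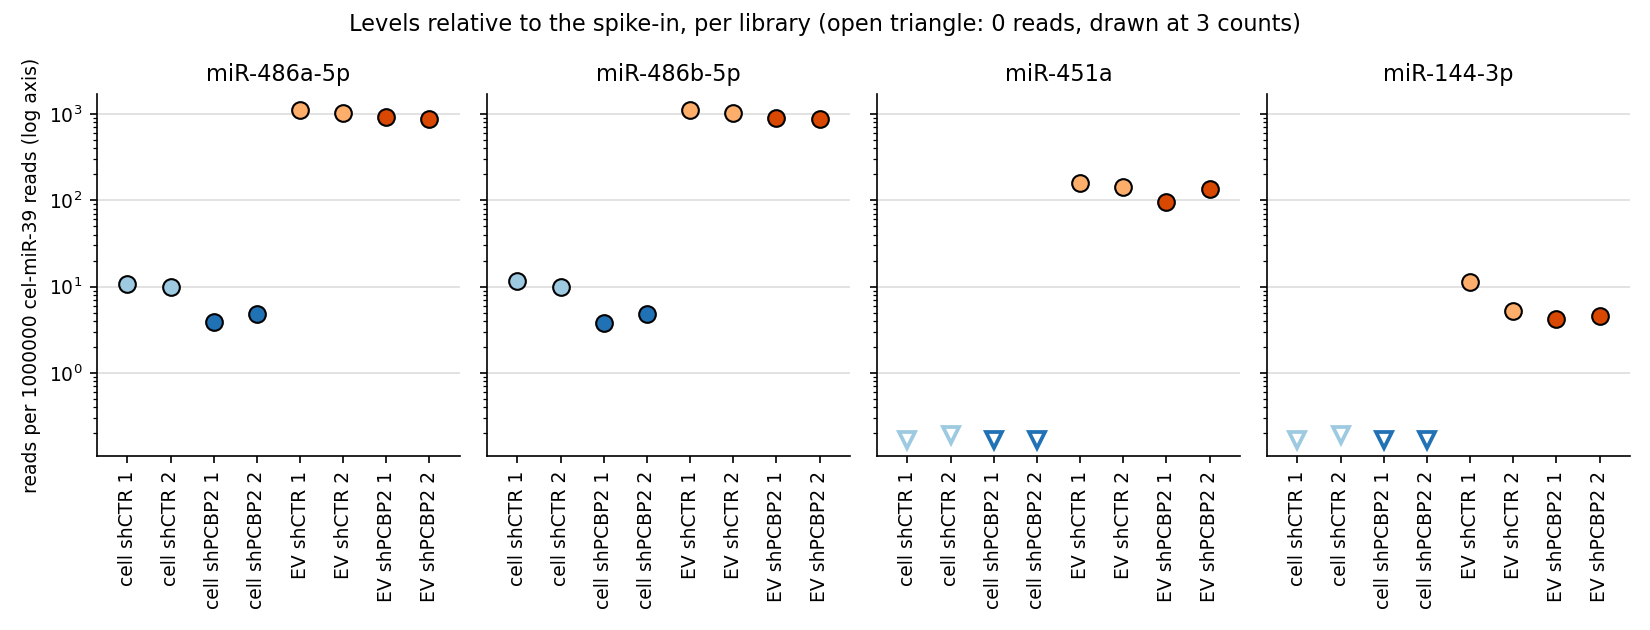
Level of each miRNA in each of the 8 libraries, in reads per 1000000 cel-miR-39 reads on a log axis, with 1 point per library. Open triangles mark libraries with 0 reads, drawn at the level of 3 counts. The miR-486 rows lie between 863 and 1110 in EVs and at or below 11.8 in cells, while miR-451a and miR-144-3p have no cell reads.

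mmu-miR-486b-5p, read from the opposite strand of the same locus, had 210 and 155 counts in cells with shCTR and 67 and 85 with shPCBP2. Its EV counts were 30824 and 26358 with shCTR, against 33508 and 26246 with shPCBP2. The rows of the pair were equal or differed by 1 count in 3 of the cell libraries and by 17 counts in cell shCTR replicate 1. In EVs they differed by 177, 337, 635 and 372 counts, from 0.576% to 1.88% of their mean. As background, these mature strands are known as near-identical copies, and how a read that matches both hairpins was counted is not given in the sources used here. Whether the rows share reads was not tested, so the level of each is uncertain and they are not taken as independent measurements, and miR-486a-5p stands for the pair where only its value is given. The fitted log2 EV/cell ratio of miR-486b-5p was 6.62 (standard error 0.35) without silencing and 7.68 (standard error 0.37) with it. Replacing the pair by its mean as 1 feature left the call of a higher level in EVs in both conditions.

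mmu-miR-451a had no read in the 4 cell libraries and at least 3595 in every EV library. It was counted 4430 and 3667 times in EV shCTR, against 3595 and 4119 times in EV shPCBP2. Relative to the spike-in its EV level was 160 and 141 reads per 1000000 spike-in reads with shCTR, against 95.7 and 135 with shPCBP2. With the floor of 3 counts in each cell library, the EV level was at least 842-fold higher than the cell level in shCTR and at least 671-fold higher in shPCBP2, relative to the spike-in. As a share of mouse miRNA reads the bounds were 26563-fold and 24507-fold. The 4 cell libraries together held 501 reads of miR-486a-5p and 0 of miR-451a, so that the floor of 3 counts in each would be at most 2.40% of miR-486a-5p, whereas in EVs miR-451a reached 14.5%, 13.7%, 10.5% and 15.5% of miR-486a-5p.

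mmu-miR-144-3p, the neighbour of miR-451a, was also without reads in the cell libraries. It had 314 and 135 counts in EV shCTR, against 160 and 141 in EV shPCBP2, with EV shCTR replicate 1 above the other EV libraries. Its EV level was at least 46.7-fold higher than the cell level in shCTR and at least 26.2-fold higher in shPCBP2, relative to the spike-in. The shCTR bound was 29.0-fold without EV shCTR replicate 1 and 63.2-fold without EV shCTR replicate 2. miR-451a and miR-144-3p did not pass the filter of the study's methods, which asks for reads in 2 or more cell libraries and as many EV libraries, and 2 of the 4 members passed it. They entered a wider fit of 598 miRNAs through their EV reads alone, so no test of their EV/cell ratio is given.

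Reads in every EV library together with 0 in every cell library were found for 7 of the 800 mouse miRNAs with any read (0.875%). Ordered by their summed EV count, miR-451a came first with 15811 and miR-144-3p sixth with 750. The others, named after their values were seen, were miR-142a-3p, miR-433-3p, miR-487b-3p, miR-493-5p and miR-409-5p, of which miR-142a-3p came second with 5811. A weak level in cells was not detectable at this depth. Low counts were themselves rare in EVs, where 28 of 761 non-zero counts lay between 1 and 40, against 921 of 2179 in cells.

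**Figure D2:**
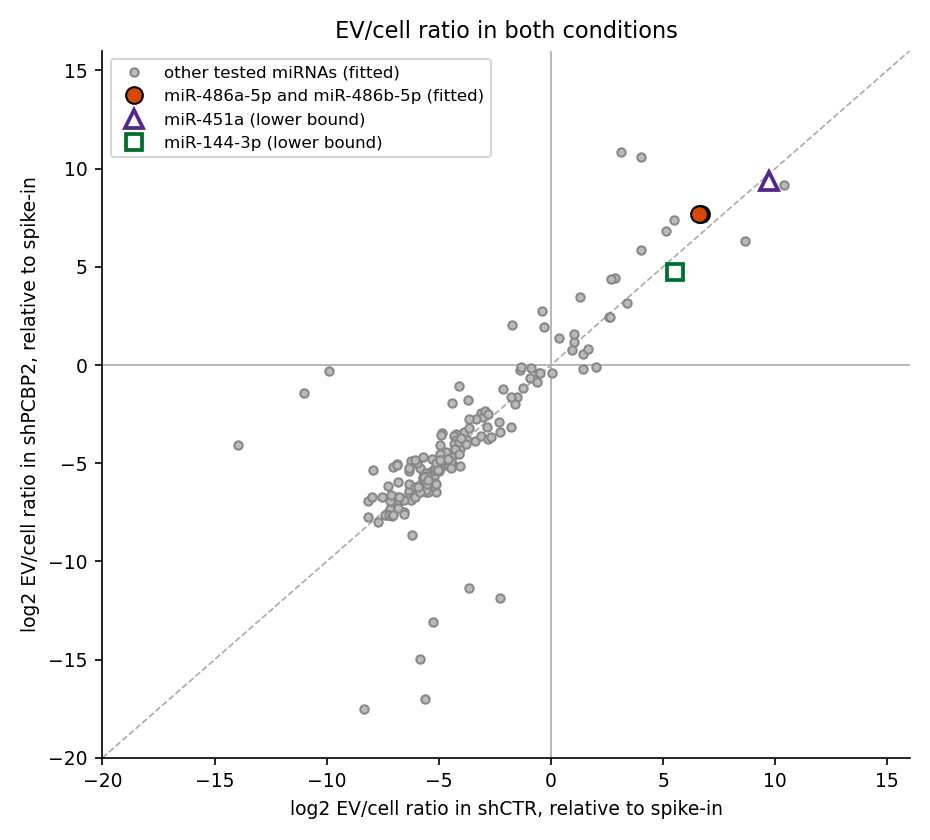
Log2 EV/cell ratio relative to the spike-in, with shCTR on the x axis and shPCBP2 on the y axis. Grey points are the other tested miRNAs, the filled points the miR-486 rows at 6.69 and 6.62 against 7.69 and 7.68, and the open symbols the lower bounds of miR-451a and miR-144-3p. The dashed line marks equal ratios, and the miR-486 rows lie above it.

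Within EVs the order of the levels was the same in all 4 libraries, with the miR-486 rows first, miR-451a next and miR-144-3p last. miR-486a-5p had 6.92 and 7.28 times the counts of miR-451a in EV shCTR, against 9.50 and 6.46 times in EV shPCBP2. The range of this ratio in shPCBP2 enclosed both shCTR values. miR-451a had 14.1 and 27.2 times the counts of miR-144-3p in EV shCTR and 22.5 and 29.2 times in EV shPCBP2, with the lowest value in EV shCTR replicate 1. Ratios between miRNAs also hold differences in ligation and amplification, which read counts do not correct.

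The other strands of these hairpins were nearly absent. miR-144-5p, which is the other strand of the Mir144 hairpin, had 210 counts in EV shPCBP2 replicate 1 and 0 in every other library, a level above that of miR-144-3p in the same library. miR-486a-3p had 9 counts in cell shCTR replicate 1 and 0 elsewhere, and miR-486b-3p and miR-451b had 0 in all libraries.

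The study asked whether silencing of PCBP2 changes the EV/cell ratio of miRNAs. For miR-486a-5p the fitted ratio was higher in shPCBP2 by 1.01 on the log2 scale (standard error 0.38), a difference that did not survive correction (adjusted p = 0.434, edgeR quasi-likelihood test, Benjamini-Hochberg adjusted). The difference for miR-486b-5p was 1.06 with a standard error of 0.39 and the same adjusted p. The median difference of all tested miRNAs was -0.08, and 2.22% of them passed the test. For miR-486a-5p the direction was the same under all 21 alternatives, from 0.79 to 1.19. The call was not, since the difference passed with TMM factors (adjusted p = 0.0406, 7.22% of all tested miRNAs called), with the total mouse miRNA count (0.0185, 3.33% called) and with DESeq2, the tool of the study's methods (0.0026, 7.78% called), while the adjusted p reached 0.998 under another alternative.

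Both terms of this ratio can be read separately, and in cells the miR-486 rows were lower in shPCBP2. The cell levels of miR-486a-5p were 10.8 and 9.85 reads per 1000000 spike-in reads in shCTR and 3.85 and 4.77 in shPCBP2, so the groups did not overlap. The cell groups were also apart as shares of mouse miRNA reads, at 0.00152% and 0.00132% in shCTR against 0.000778% and 0.000673% in shPCBP2. Lower cell levels without overlap were common, however, found for 40.4% of the 574 miRNAs with reads in at least 2 cell libraries relative to the spike-in and for 31.5% as a share. The log2 difference of miR-486a-5p was -1.26 (standard error 0.27) and that of miR-486b-5p was -1.34 (standard error 0.28), each with an adjusted p of 0.110 (edgeR quasi-likelihood test, Benjamini-Hochberg adjusted). The median of all tested miRNAs was -0.49, so miR-486a-5p lay 0.77 below it. In cells, edgeR's quasi-likelihood test called 0 of 180 miRNAs (0.0%), with 25 at an unadjusted p under 0.05, both miR-486 rows among them, while DESeq2 called 18 (10.0%) and limma voom 16. Both miR-486 rows passed with DESeq2, with TMM factors (2.78% called), with the total mouse miRNA count (1.67% called) and with at least 10 counts asked of every library (7.08% called), and the adjusted p of miR-486a-5p ran from 1.3e-07 to 0.651 over the alternatives. Neither row passed with limma voom, or with a fit of only the 4 cell libraries, which called 39 of the 180 tested miRNAs. The cell values rest on 68 to 210 counts per library, against at least 26246 in EVs.

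In EVs, whether the miR-486 rows were higher or lower in shPCBP2 depended on what the reads were divided by. Relative to the spike-in, miR-486a-5p was at 1104 and 1025 reads per 1000000 spike-in reads in shCTR and at 909 and 875 in shPCBP2, lower without overlap. As a share of mouse miRNA reads it was at 4.46% and 4.82% in shCTR and at 5.52% and 5.29% in shPCBP2, higher without overlap. Relative to the spike-in, the EV groups did not overlap with shPCBP2 lower for 42.6% of the 197 miRNAs with reads in at least 2 EV libraries, and as a share they did not overlap with shPCBP2 higher for 16.8%. The fitted difference was -0.25 for miR-486a-5p (standard error 0.27, adjusted p = 0.742, edgeR quasi-likelihood test, Benjamini-Hochberg adjusted), against a median of -0.54 over all tested miRNAs, of which 7.22% passed. It was 0.02, 0.13 and 0.22 when scaled by TMM, by median-of-ratios factors and by the total mouse miRNA count, so no direction is given for the EV level of the pair.

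**Figure D3:**
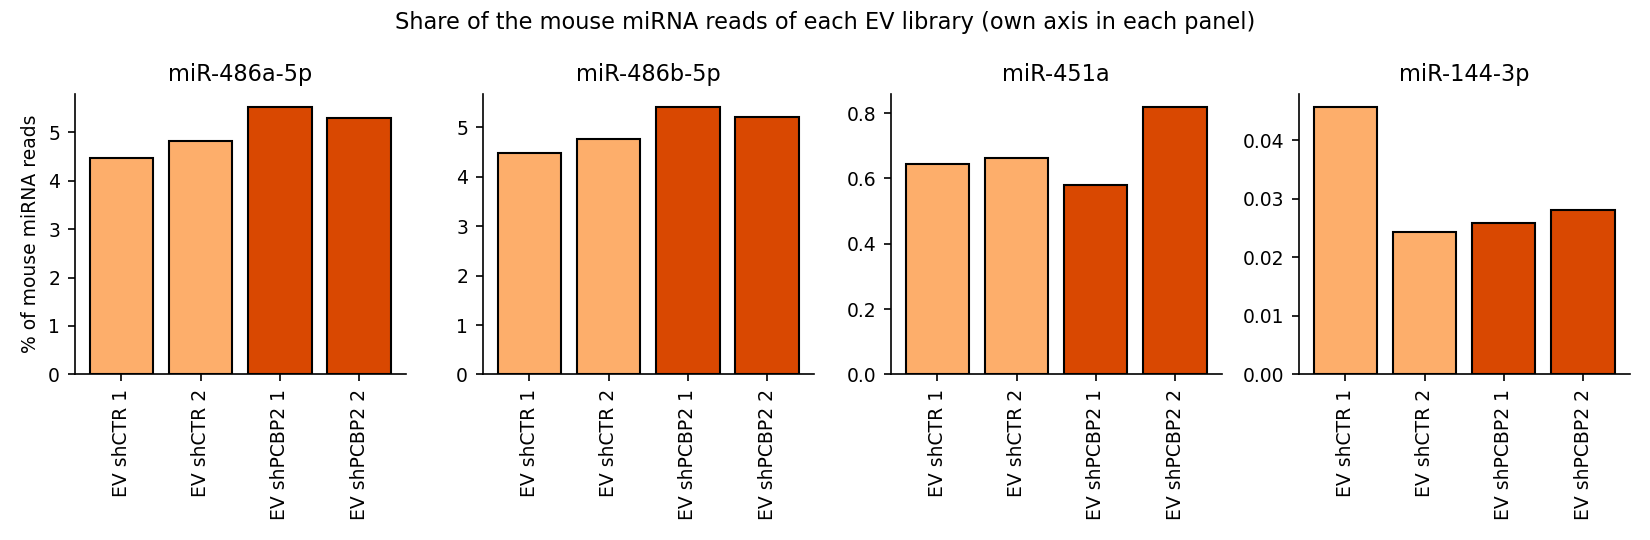
Share of the mouse miRNA reads taken by each miRNA in each of the 4 EV libraries, in percent, with 1 bar per library and an axis from 0 in each panel. The miR-486 bars are higher in both shPCBP2 libraries, while for miR-451a and miR-144-3p the conditions overlap.

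For miR-451a the EV groups also did not overlap relative to the spike-in, with shPCBP2 lower. The same was found for 42.6% of the 197 miRNAs with reads in at least 2 EV libraries. As shares of mouse miRNA reads the EV groups of miR-451a overlapped, at 0.644% and 0.662% in shCTR and 0.581% and 0.819% in shPCBP2. Its fitted EV difference was -0.38 (standard error 0.48, adjusted p = 1.0, edgeR quasi-likelihood test, Benjamini-Hochberg adjusted over 598 miRNAs), where 0.669% passed, and the sign turned under each scaling without the spike-in. Relative to the spike-in, miR-144-3p was at 11.3 and 5.19 in EV shCTR and at 4.26 and 4.64 in EV shPCBP2, likewise lower without overlap. Its shares were 0.0457% and 0.0244% with shCTR, against 0.0259% and 0.0280% with shPCBP2, with overlap. Its fitted EV difference was -0.89 (standard error 0.75, adjusted p = 1.0, edgeR quasi-likelihood test, Benjamini-Hochberg adjusted over 598 miRNAs), and it was -0.22 without EV shCTR replicate 1 and -1.34 without EV shCTR replicate 2. A change of the EV/cell ratio between conditions could not be fitted for these miRNAs, since both cell groups were at 0.

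**Figure D4:**
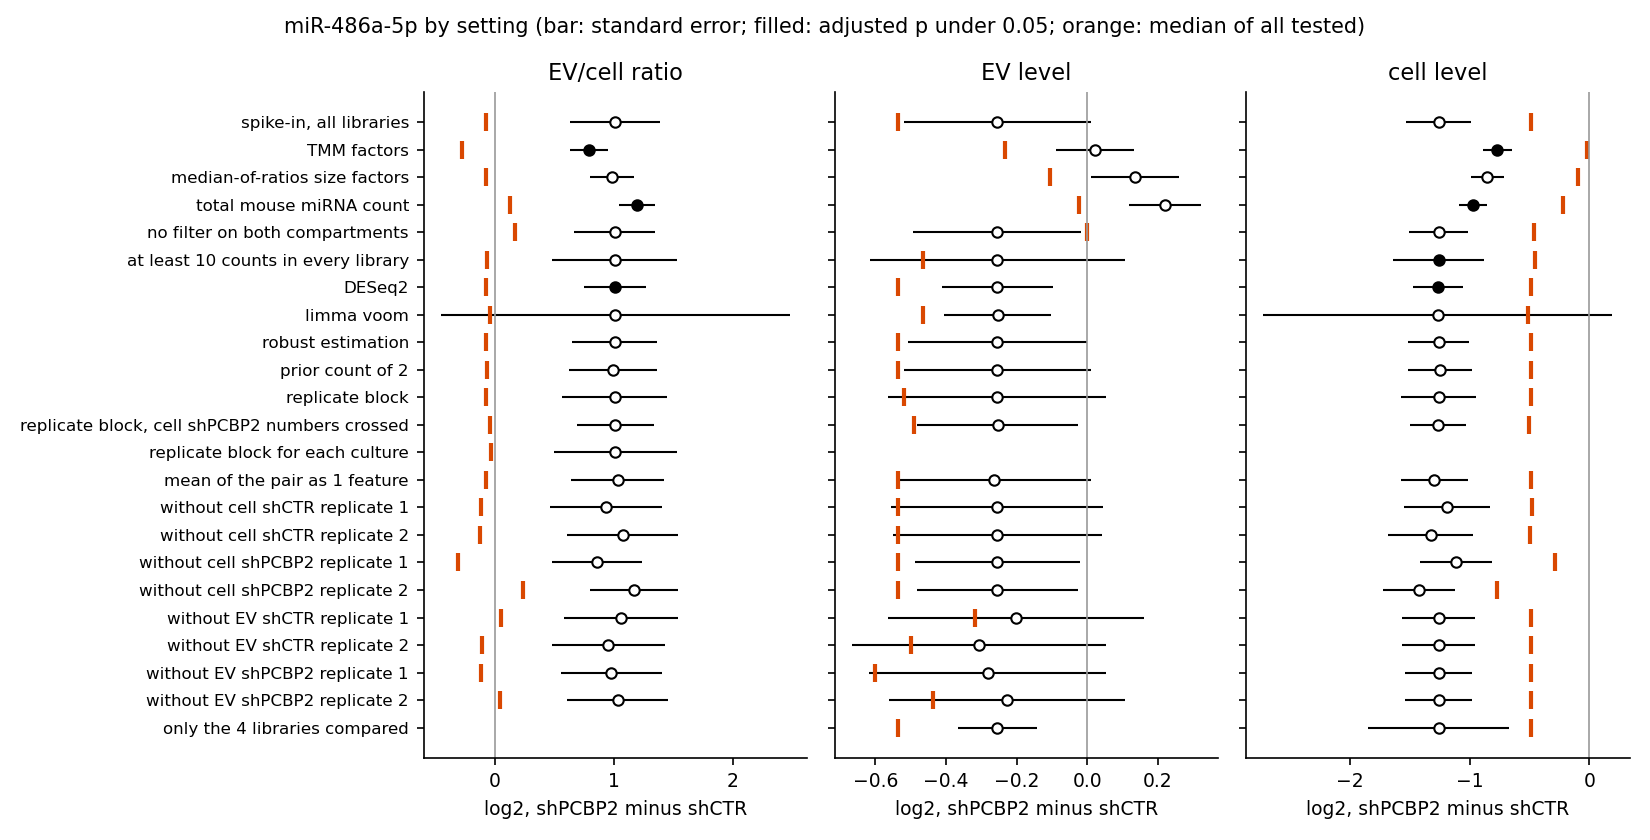
Log2 difference of miR-486a-5p, shPCBP2 minus shCTR, under each setting, for the EV/cell ratio, the EV level and the cell level. Points with bars are the estimate and its standard error, filled points have an adjusted p under 0.05, and orange marks are the median of all tested miRNAs. The ratio lies above 0 and the cell level below 0 in every row, whereas the EV level lies on either side of 0.

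Other miRNAs of blood were set beside these values. The leukocyte miRNAs miR-142a-3p, miR-142a-5p, miR-150-5p and miR-223-3p together took 1.37% to 1.70% of the mouse miRNA reads of EV libraries and 0.000111% to 0.000707% in cells. Of these, miR-142a-3p and miR-142a-5p had 0 reads in all cell libraries, and miR-223-3p had 0 to 6. miR-150-5p, a miRNA of mature lymphocytes, had 87, 41, 16 and 8 counts in the cell libraries and 5575, 3658, 3827 and 3931 in the EV libraries. The summed level of this list was thus higher in EVs than in cells, as for the miR-486 rows. Among the EV libraries its share was highest in EV shCTR replicate 1, where that of miR-486a-5p was lowest. The part of this list in the values of the miR-486 rows was not tested. Of its members, 2 could be tested, and both were higher in EVs in both conditions. Among all tested miRNAs, 6.67% were called higher in EVs in shCTR and 7.78% in shPCBP2. The ratio of miR-223-3p rests on its 0 to 6 cell counts.

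Of 9 miRNAs that are abundant in red cells but also made by many other tissues, 8 could be tested. Relative to the spike-in all 8 were lower in EVs than in cells in both conditions, with a median log2 ratio of -4.32 with shCTR and -3.93 with shPCBP2, above the medians of -4.93 and -4.90 over all tested miRNAs, of which 59.4% and 60.0% were lower. For example, miR-16-5p had a log2 ratio of -4.41 in shCTR and miR-92a-3p one of -2.82. As a share of mouse miRNA reads the list took 13.8% to 14.5% in cells and 17.9% to 20.7% in EVs, a sum led by miR-16-5p. For the single miRNAs, the mean share was higher in EVs for 6 of the 9 in both conditions, while miR-93-5p and miR-106b-5p were lower on both scales. Among 3 miRNAs of striated muscle, where miR-486 is also abundant, miR-206-3p went against the miR-486 rows, with 12252 to 19342 counts in cells and 86 to 178 in EVs. The others were rare, as miR-133a-3p had 13, 0, 3 and 0 counts in cells and 0 in EVs. miR-1a-3p had 6, 20, 19 and 52 counts in cells and 10, 0, 65 and 0 in EVs, and did not pass the test. The endothelial and platelet miRNAs miR-126a-3p and miR-126a-5p did not pass the test, with log2 EV/cell ratios of -0.90 and 1.44 in shCTR relative to the spike-in, which lay 4.03 and 6.37 above the median of all tested miRNAs. As shares of mouse miRNA reads both were higher in EVs, at means of 0.302% and 0.382% against 0.0178% and 0.00431% in cells of shCTR.

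**Figure D5:**
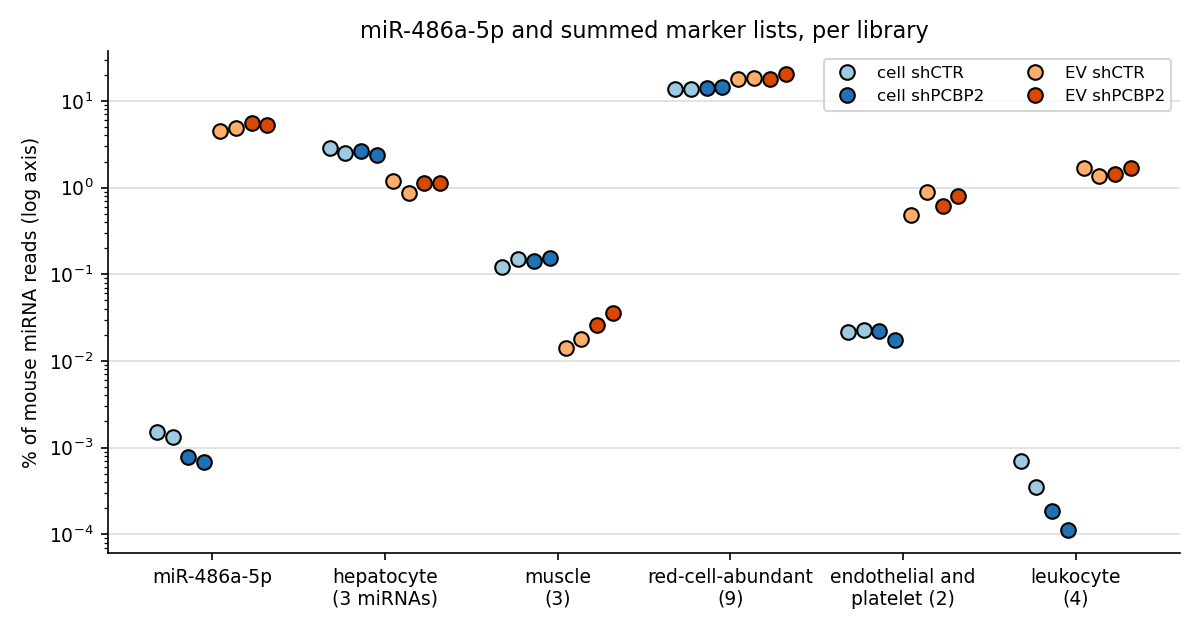
Share of mouse miRNA reads, in percent on a log axis, for miR-486a-5p and for the summed miRNAs of 5 lists, with 1 point per library. miR-486a-5p, the leukocyte list and the endothelial and platelet list are higher in all EV libraries than in all cell libraries by a wide margin. The red-cell-abundant list is also higher in all EV libraries, by a small margin. The sums of the hepatocyte and muscle lists, led by miR-194-5p and miR-206-3p, are lower in EVs. miR-122-5p of the hepatocyte list had a higher mean share in EVs.

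The tested miRNAs most like miR-486a-5p over the 8 libraries were found by the root mean square difference of log2 levels relative to the spike-in, each centred on its mean. For miR-486b-5p this difference was 0.0455. Among the 178 others it was smallest for miR-150-5p (0.680), followed by miR-379-5p (0.925), miR-127-3p (1.27), miR-376c-3p (1.37) and miR-145a-5p (1.41), with a median of 6.38. miR-379-5p, miR-127-3p and miR-376c-3p come from the imprinted Dlk1-Dio3 region. Some of these profiles rest on few cell reads, since miR-379-5p had 1, 0, 0 and 2 counts in the cell libraries. The likeness is a description, as all points share the libraries and their spike-in counts.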

How the data were processed

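The authors added cel-miR-39 to the RNA, prepared libraries with a small RNA kit, trimmed the reads, aligned the forward reads with mirPRo and NovoAlign to miRBase hairpins plus the spike-in, and deposited raw counts per mature miRNA. The genome build of that step is not given in the sources used here. From these counts, levels were scaled to the spike-in, and edgeR 4.0.16 (R 4.3.3) was run over all libraries by the quasi-likelihood test with spike-in counts as library sizes, 0.125 as prior count, terms for compartment, shRNA and their interaction, and Benjamini-Hochberg adjustment over all tested miRNAs. Tested were 180 miRNAs with reads in 2 or more cell and 2 or more EV libraries, and, for miR-451a and miR-144-3p, 598 with reads in at least 2 libraries of any kind. Standard errors come from the F statistic and are approximate. The common dispersion was 0.693 in the fit of 180 miRNAs. DESeq2 1.42.0 and limma 3.58.1 were alternatives, beside other scalings, filters, blocks and left-out libraries. The fit was checked on simulated counts with known log2 changes of 3, so power for the smaller differences of the members between conditions was not measured. Groups and replicate numbers follow the sample titles; the descriptions number the shPCBP2 replicates differently. The miRNAs named are the members, the other strands of their hairpins, fixed lists, and the 5 tested miRNAs most like miR-486a-5p. The members and lists were chosen with earlier results of these data known.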

Additional observations from a re-analysis of the deposited data

How the results depend on the processing

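The higher EV/cell ratio of both miR-486 rows kept its direction and its call under all 22 alternatives in each condition. Such calls were more common without the spike-in. Of 180 tested miRNAs, 43 were called higher in EVs in shCTR and 54 in shPCBP2 with the total mouse miRNA count. With TMM factors 42 and 42 were, and with median-of-ratios factors 40 and 45. Leaving out each library in turn gave log2 ratios from 6.62 to 6.76 in shCTR and 7.55 to 7.85 in shPCBP2 for miR-486a-5p. For miR-486b-5p they ran from 6.49 to 6.75 and from 7.52 to 7.85. With the total mouse miRNA count the bounds of miR-451a rose to 26563-fold in shCTR and 24507-fold in shPCBP2, and those of miR-144-3p to 1473-fold and 956-fold. Without single libraries, a choice added after seeing the data, they lay between 788 and 894, 566 and 801, 29.0 and 63.2, and 25.2 and 27.4, in the same order.

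The difference of the ratio between conditions passed the test for miR-486a-5p with TMM factors (0.79), the total mouse miRNA count (1.19) and DESeq2 (1.01), and for miR-486b-5p with the total count (1.25) and DESeq2 (1.06). Of 180 miRNAs, 7.22% passed with TMM factors and 3.33% with the total count. Without single libraries it ran from 0.86 to 1.17 and from 0.91 to 1.24. The cell difference passed with TMM factors (-0.77 for miR-486a-5p, -0.85 for miR-486b-5p), the total count (-0.97, -1.05), at least 10 counts in every library (-1.26, -1.34) and DESeq2 (-1.26, -1.34). The cell difference did not pass with limma voom or with only the 4 cell libraries. It ran from -1.42 to -1.12 and from -1.51 to -1.18 without single libraries. The EV difference turned positive with TMM factors, median-of-ratios factors and the total count, at 0.023, 0.13 and 0.22 for miR-486a-5p, 0.0043, 0.12 and 0.20 for miR-486b-5p, and 0.088, 0.034 and 0.10 for miR-451a. Without single libraries it ran from -0.31 to -0.20, from -0.34 to -0.21, and from -0.65 to -0.15, and for miR-144-3p from -1.34 to -0.22. By construction these scalings divide by mouse miRNA reads in place of the spike-in; they moved the median EV difference of the 180 miRNAs from -0.54 to -0.23, -0.11 and -0.02.

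Deviations of same-numbered samples correlated between -0.51 and 0.04. In groups of 2 the sign of such a correlation depends on the numbering, so whether samples were paired is not known. The sample descriptions give the cell and EV libraries of shPCBP2 replicate 1 different numbers. Blocks built on the numbers of the titles therefore need not match cultures. With the replicate block the log2 difference of the ratio for miR-486a-5p stayed at 1.01, and the number of miRNAs whose ratio differed fell from 4 to 1 and that of EV differences from 13 to 2. Cell shCTR and cell shPCBP2 gave the correlation of -0.51, and with crossed numbers, added after seeing the data, 0 ratios and 6 EV differences were called. No member changed its call under either block. Groups of 2 limit every comparison between conditions, and the cell values of miR-486 rest on few counts.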
